A study of Mus musculus with 6 samples.

Results

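The 9 genes described here encode NFAT transcription factors, the subunits of the phosphatase calcineurin and the calcineurin inhibitor Rcan1, and were taken by gene symbol from the 39527 genes of the study's comparison of KO and WT. All 9 were present, namely Nfatc1, Nfatc2, Nfatc3, Nfat5, Ppp3ca, Ppp3cb, Ppp3cc, Ppp3r1 and Rcan1, and all 9 passed the authors' filter on low counts. RNA was sequenced from sorted mouse lung ILC2s, the innate lymphoid cells of type 2 immunity, in 3 KO samples (R5/+LKB1f/f) and 3 WT samples (R5/+), each a pool of 3 to 4 mice, so that single animals were not resolved. Both groups carried R5/+ and were challenged for 4 days with IL-33, an epithelial cytokine released on damage that stimulates ILC2s, so no unchallenged baseline enters the values. LKB1 is the kinase encoded by Stk11, and the labels do not spell out R5, the cells in which the floxed alleles were recombined or the age of the mice.

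Calcineurin is a phosphatase made of a catalytic A subunit and a regulatory B subunit, and calcium bound to calmodulin switches it on. Active calcineurin removes phosphates from the cytoplasmic NFATc proteins, which then enter the nucleus and bind DNA, often beside AP-1, while kinases such as GSK3 send them out again. In ILC2s, calcium signals such as those of leukotrienes and neuromedin U engage this route and add to the cytokine output that IL-33 evokes. NFAT5 shares the DNA-binding domain but lacks the calcineurin docking region and responds to osmotic stress.

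No source used here states whether KO or WT was the numerator of the deposited fold change, so signs are given as deposited and no gene is assigned to a genotype. Stk11, the floxed gene, had a log2 fold change of -1.34 ± 0.30 (SE) with an adjusted p of 0.000103 per the authors' deposited table. A positive value below therefore has the sign opposite to that of Stk11, and a negative value the same sign. Read as KO over WT, Stk11 would be lower in KO, and read as WT over KO it would be lower in WT. The columns of single libraries in the file carry names that match no label and were not used, so that levels are means over all libraries of the authors' fit and errors are the deposited standard errors.

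Members are shown first at the sequence level, because NFAT proteins bind a short DNA core and because some members have more than one promoter. Windows from 250 bases before to 50 bases after an annotated start were available for 6 of the 9 genes (9 windows, RefSeq, GRCm38.p6). They were searched for GGAAA, the core that NFATc proteins and NFAT5 share, on both strands, so that its reverse complement TTTCC also counted, and no other motif was searched. Of all 32851 windows of this length, 61.3% held at least 1 core. The windows of the called genes Nfatc2 and Nfat5 and of the feedback gene Rcan1 follow, 5′ to 3′ on the strand of the gene, with each core in capitals. For Nfatc2 the upstream window is chr2:168601608-168601907 and the downstream window chr2:168590316-168590615, both on the minus strand, for Nfat5 chr8:107293220-107293519 on the plus strand, and for Rcan1 the upstream window is chr16:92466120-92466419 and the internal window chr16:92400029-92400328, both on the minus strand.
Nfatc2 upstream: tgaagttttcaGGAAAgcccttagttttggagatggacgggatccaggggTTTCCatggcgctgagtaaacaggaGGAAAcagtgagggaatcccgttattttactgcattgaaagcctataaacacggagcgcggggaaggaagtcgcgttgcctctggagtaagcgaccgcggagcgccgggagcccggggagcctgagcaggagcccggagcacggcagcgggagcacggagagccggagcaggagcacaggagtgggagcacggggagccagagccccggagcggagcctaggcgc
Nfatc2 downstream: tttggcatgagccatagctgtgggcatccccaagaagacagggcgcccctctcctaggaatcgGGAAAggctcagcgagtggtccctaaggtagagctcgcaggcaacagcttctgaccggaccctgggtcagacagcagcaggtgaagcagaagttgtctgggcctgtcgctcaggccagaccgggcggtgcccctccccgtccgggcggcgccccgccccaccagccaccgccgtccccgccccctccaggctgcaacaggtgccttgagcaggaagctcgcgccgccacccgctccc
Nfat5: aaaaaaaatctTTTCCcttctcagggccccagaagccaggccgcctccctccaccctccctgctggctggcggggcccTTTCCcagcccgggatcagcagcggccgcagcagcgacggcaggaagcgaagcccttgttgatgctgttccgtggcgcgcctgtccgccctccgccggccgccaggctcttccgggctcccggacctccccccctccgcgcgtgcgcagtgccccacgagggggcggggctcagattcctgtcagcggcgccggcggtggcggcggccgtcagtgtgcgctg
Rcan1 upstream: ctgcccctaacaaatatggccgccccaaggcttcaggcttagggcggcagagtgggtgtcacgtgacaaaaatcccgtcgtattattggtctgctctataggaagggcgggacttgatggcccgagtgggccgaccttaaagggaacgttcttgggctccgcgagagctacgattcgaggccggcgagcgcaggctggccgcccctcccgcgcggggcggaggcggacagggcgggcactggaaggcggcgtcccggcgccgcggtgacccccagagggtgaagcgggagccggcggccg
Rcan1 internal: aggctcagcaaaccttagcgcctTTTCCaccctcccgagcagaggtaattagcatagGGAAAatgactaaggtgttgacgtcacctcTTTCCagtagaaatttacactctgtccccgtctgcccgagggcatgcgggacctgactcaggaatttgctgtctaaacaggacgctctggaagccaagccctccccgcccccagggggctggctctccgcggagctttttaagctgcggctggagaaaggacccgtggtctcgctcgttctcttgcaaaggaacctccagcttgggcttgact

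The Nfatc2 upstream window held 3 cores and its downstream window 1, and the Nfat5 window held 2. The Rcan1 windows differed, with 0 cores in the upstream window and 3 in the internal one, whose first bases lay at -227, -193 and -163 from the start. At least 2 cores were found in 26.7% of all windows and at least 3 in 9.41%. Of the members without a call, the Ppp3cb window held the most cores of the set, 4, a count reached by 2.65% of all windows, while the Nfatc3 windows held 1 and 0 and the Ppp3r1 window 0. The internal promoter is the one known from other cells to answer to NFAT and to drive the short feedback isoform of Rcan1. A match is a description of these letters and shows no binding, and the deposited values are per gene, so that the transcripts from the separate starts of Rcan1 or Nfatc2 were not told apart.

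Of the 9 genes, 2 passed an adjusted p of 0.05, both with a positive value, and none of the calls was negative. This share of 22.2% lies close to the 24.5% of all 14961 tested genes that passed. Positive calls made up 11.0% and negative calls 13.5% of all tested genes. The called members were Nfatc2 and Nfat5, at about 1.85-fold and 2.02-fold, and the other 7 lay between -0.60 and 0.23 on the log2 scale per the authors' deposited table. Over the 9 genes the median log2 fold change was 0.0006, the value of Rcan1, against -0.0056 over all tested genes. In these bulk samples, fewer cells of a type and less RNA per cell cannot be told apart.

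**Figure D1:**
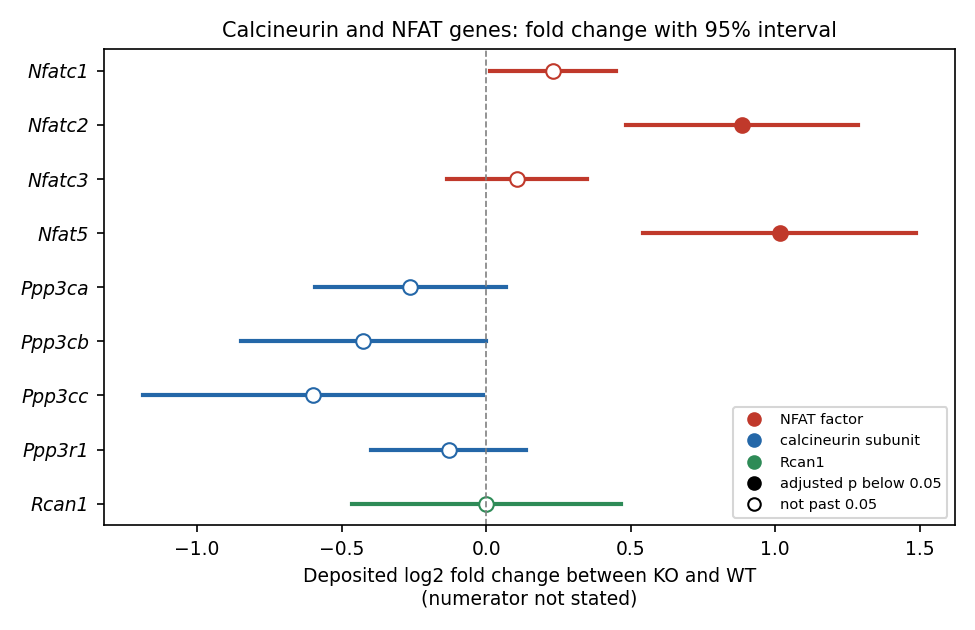
Deposited log2 fold change between KO and WT for each of the 9 genes (x axis, numerator not stated), with points as estimates and bars as 95% intervals from the deposited standard error. Filled points passed an adjusted p of 0.05, and only Nfatc2 (0.88) and Nfat5 (1.01) did so, while the 4 calcineurin subunits lie left of 0 with open points.

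Nfatc2, also called NFAT1, is the NFAT protein that resting lymphocytes hold ready in the cytoplasm. It lies on mm10 chromosome 2 (168476410 to 168601657, minus strand). Its mean was 2026 normalized counts and its log2 fold change 0.88 ± 0.20 (SE) per the authors' deposited table, with an adjusted p of 0.000211. The 95% interval ran from 0.48 to 1.28, a fold between 1.40 and 2.44. Among all tested genes, the absolute test score of Nfatc2 stood at the 93.1 percentile.

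Nfat5, the osmotic stress factor also known as TonEBP, had the largest value of the 9, a log2 fold change of 1.01 ± 0.24 (SE) at a mean of 1201 normalized counts per the authors' deposited table. Its adjusted p there was 0.000331, and its 95% interval ran from 0.54 to 1.49. The gene lies on mm10 chromosome 8 (107293470 to 107379517, plus strand) and is the longest of the set, with 18378 exonic bases. Both called genes had standard errors wide for their level. For Nfatc2 the error was 1.43 times and for Nfat5 1.59 times the median of genes whose means lay within 0.8 to 1.25 times their own (982 and 1218 genes). Which libraries carry this spread was not tested.

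The 2 other NFAT genes had small positive values that did not pass. Nfatc1, also called NFAT2, whose short isoform is induced by NFAT itself in activated lymphocytes, had a log2 fold change of 0.23 ± 0.11 (SE) per the authors' deposited table, with an adjusted p of 0.116. Its 95% interval of 0.01 to 0.45 bounds the fold between 1.01 and 1.37. Nfatc3, also called NFAT4, had 0.11 ± 0.12 (SE) and an adjusted p of 0.586 per the authors' deposited table, with an interval of -0.14 to 0.35. Both estimates were tight, with errors 0.79 and 0.87 times the median of genes at a like mean. The intervals of Nfatc1 and Nfatc3 ended below the start of those of Nfatc2 and Nfat5, but the difference between genes was not itself tested. In GENCODE M21, Nfatc3 shares 219 exonic bases with Esrp2 on the opposite strand, and the kits named in the labels are not stated to mark strand.

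All 4 calcineurin subunits had negative values and 0 passed. Ppp3ca, a catalytic subunit, had a log2 fold change of -0.26 ± 0.17 (SE) with an adjusted p of 0.273 and a mean of 2622 normalized counts per the authors' deposited table. The second catalytic gene, Ppp3cb, had -0.42 ± 0.22 (SE) with an adjusted p of 0.144 per the authors' deposited table. Ppp3cc, the catalytic subunit best known from testis, had -0.60 ± 0.30 (SE) with an adjusted p of 0.137 per the authors' deposited table. Its interval was the widest of the 9, from -1.19 to -0.01, and its error was 1.71 times the median at a like mean. Before adjustment, the p-values of Ppp3cb and Ppp3cc were 0.0496 and 0.0465 per the authors' deposited table, so that they stand at the edge of a single test and miss the threshold over all genes. Ppp3r1, the calcium-binding regulatory B subunit, had -0.13 ± 0.14 (SE) and an adjusted p of 0.544 per the authors' deposited table, with a fold between 0.759 and 1.10. Ppp3r1 shares 462 exonic bases with Wdr92 on the same strand, and Ppp3cc shares 91 with the antisense gene Gm49417.

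Rcan1, the inhibitor that calcineurin and NFAT induce as a brake on their own activity, had a log2 fold change of 0.0006 ± 0.24 (SE) and an adjusted p of 0.999 per the authors' deposited table. Its mean was 397.4 normalized counts. The 95% interval of -0.46 to 0.46 leaves room for a fold between 0.725 and 1.38. The internal, core-rich promoter printed above and the upstream one feed the same gene value, and a shift between them would not show in it.

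**Figure D2:**
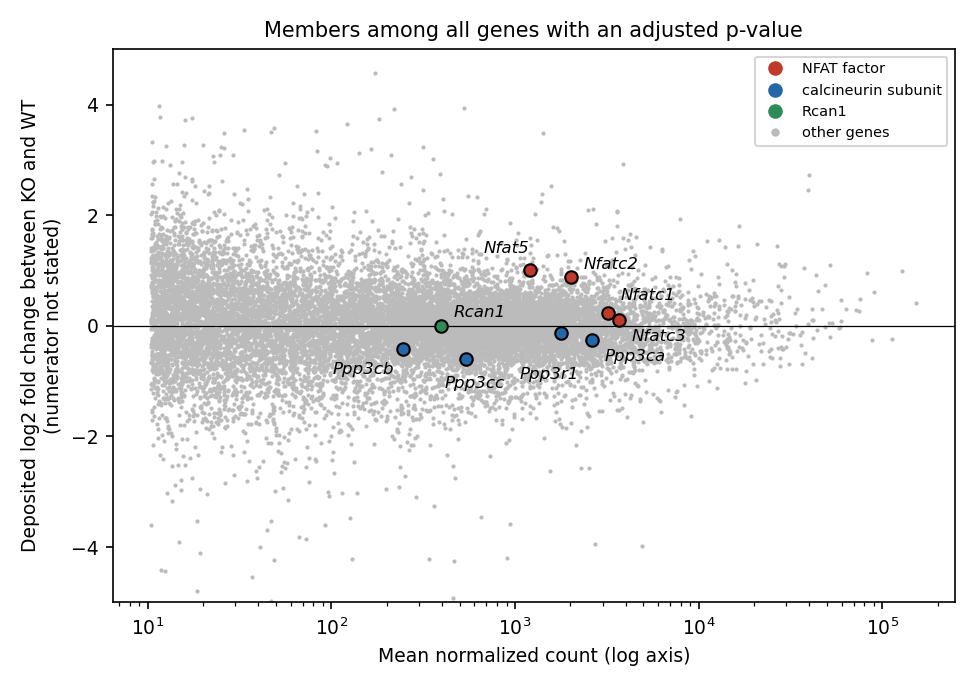
Mean normalized count (x axis, log scale) against the deposited log2 fold change between KO and WT (y axis, numerator not stated) for all genes with an adjusted p, in grey, with the 9 members in colour. Nfat5 and Nfatc2 lie toward the upper side of genes of their level and the other members nearer to 0, and 33 genes beyond 5 on either side are off the axis.

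Levels between genes were compared per kilobase of exonic length, with all annotated exons of a gene merged. These are means over the libraries of the authors' fit, so they carry no replicate error, and whether neighbours in the order differ was not tested. Ppp3r1 was highest at 552.9 normalized counts per kilobase, followed by Nfatc1 at 427.5 and Nfatc3 at 313.0. Ppp3ca (262.7), Nfatc2 (191.5) and Ppp3cc (180.9) formed the middle of this per-kilobase scale. Rcan1 (128.8), Nfat5 (65.3) and Ppp3cb (27.9) were lowest in normalized counts per kilobase. The called genes were thus neither the most abundant members nor the most abundant NFAT genes, and among protein-coding tested genes Nfatc2 and Nfat5 ranked at the 68.7 and 45.6 percentiles of this level. Ppp3ca stood 9.40 times above Ppp3cb on the same scale.

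**Figure D3:**
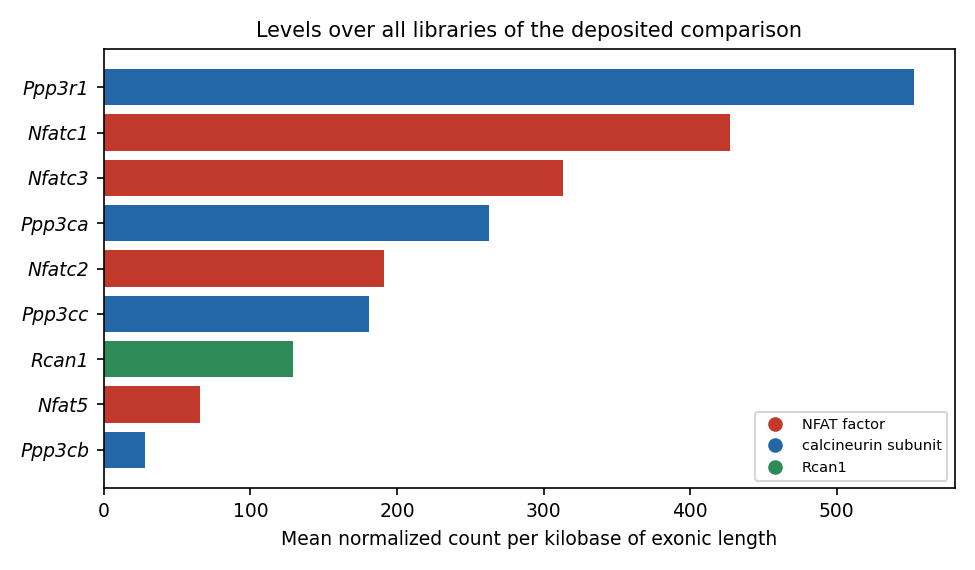
Mean normalized count per kilobase of exonic length (x axis) for each of the 9 genes over all libraries of the deposited comparison, with no replicate error. Bars run from Ppp3r1 at 552.9 to Ppp3cb at 27.9.

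Fold changes in this comparison rose weakly with exonic length over 13036 protein-coding genes (Spearman rho = 0.263). The median log2 value was 0.155 for the longest 25% of these genes and -0.244 for the shortest 25%. The NFAT genes are long (7469 to 18378 exonic bases), while Rcan1, Ppp3cc and Ppp3r1 are short (2985 to 3228 bases). At the length and GC content of Nfatc2 and Nfat5 the trend stood at 0.19 and 0.23. With the length and GC trends removed, Nfatc2 had a log2 value of 0.69 (adjusted p = 0.00552) and Nfat5 0.79 (adjusted p = 0.00794), so both kept their call. The order of NFAT genes above and calcineurin subunits below 0 did not hold for every member, since Nfatc3 moved to -0.026 and Ppp3r1 to 0.043. Nfatc1 moved to 0.12 (adjusted p = 0.481) and Ppp3cc to -0.42 (adjusted p = 0.348). Ppp3ca, a long gene, moved to -0.35 and Ppp3cb to -0.49, and neither passed (adjusted p = 0.124 and 0.0862).

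**Figure D4:**
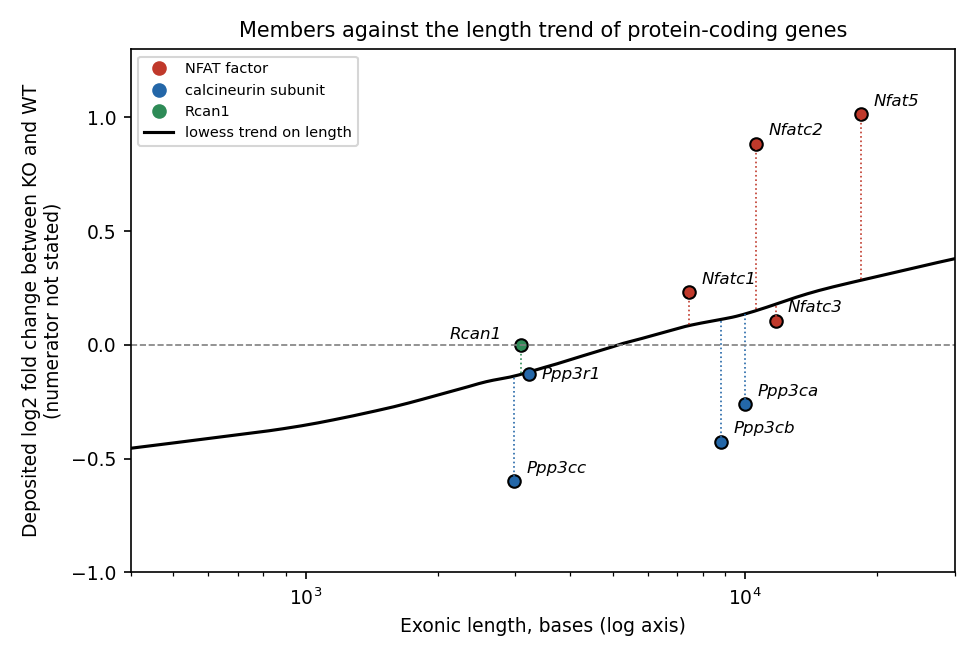
Exonic length in bases (x axis, log scale) against the deposited log2 fold change (y axis, numerator not stated) for the 9 genes, with the lowess trend over 13036 protein-coding genes as a black line and dotted lines from each gene to it. Nfatc2 and Nfat5 lie well above the line, Ppp3ca, Ppp3cb and Ppp3cc below it, and Nfatc3 and Ppp3r1 close to it.

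The rest of the pathway was read from 8 lists of 77 genes, of which 73 were tested and 27 were called (37.0%), 15 of them positive and 12 negative, beside 24.5% of all tested genes (11.0% positive and 13.5% negative). Their median log2 fold change was 0.12, against -0.0056 over all tested genes. The lists were drawn up with earlier results of these data known, so these shares are a description. Untested were Nfatc4, the NFAT gene best known outside the immune system, Ppp3r2, the testis form of the B subunit, and Rcan2, whose means lay between 3.70 and 9.96 normalized counts per the authors' deposited table, while Stimate was not matched by symbol. Rcan3, a relative of Rcan1 that also binds calcineurin, passed with 0.79 ± 0.20 (SE) and an adjusted p of 0.00106 per the authors' deposited table. Its 95% interval of 0.39 to 1.19 overlapped that of Rcan1 between 0.39 and 0.46, and the difference between these genes was not tested. Nfatc2ip, a protein that binds NFATc2, had 0.04 ± 0.27 (SE) per the authors' deposited table.

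Upstream calcium entry had 1 positive and 2 negative calls among 15 tested genes, with a median log2 fold change of -0.02. This share of 20.0% lies close to the 24.5% of all tested genes. Itpkb, a kinase that consumes inositol trisphosphate, was positive at 0.94 ± 0.25 (SE) per the authors' deposited table. Plcg2, a phospholipase that makes inositol trisphosphate, was negative at -1.11 ± 0.17 (SE) with an adjusted p of 3.24e-09 per the authors' deposited table, and the calcium pump Atp2b4 at -0.52 ± 0.17 (SE). Plcg1, the relative of Plcg2, had 0.45 ± 0.22 (SE) and did not pass (adjusted p = 0.118) per the authors' deposited table. The genes of store-operated calcium entry gave 0 calls of 5, with Stim1, Stim2, Orai1, Orai2 and Orai3 between -0.44 and 0.12 per the authors' deposited table. With the length and GC trends removed, Itpr1, an inositol trisphosphate receptor, and Atp2b1, a calcium pump, also passed, at -0.42 and -0.34.

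Downstream of calcium, 2 calmodulin genes were read. Calm3 passed with -0.53 ± 0.12 (SE) per the authors' deposited table, while Calm2 had -0.21 ± 0.13 (SE), did not pass and turned to 0.13 with the trends removed. Over all tested genes, 24.5% were called, 11.0% positive and 13.5% negative. Among 6 genes of calcineurin inhibitors and anchors, the median was -0.37 and 3 passed, all negative. They were Ppia, which encodes cyclophilin A, the partner of cyclosporin (-0.72 ± 0.13, SE), Fkbp1a, the partner of tacrolimus (-0.52 ± 0.17, SE), and Chp1, a calcineurin B homologue (-0.37 ± 0.14, SE) per the authors' deposited table. Chp1 had an adjusted p of 0.0375 per the authors' deposited table and lost its call with the trends removed (-0.23, adjusted p = 0.257). The list of inhibitors and anchors then had 2 negative and 0 positive calls. Whether lists as short as these differ from all tested genes was not tested. Ppia and the calmodulin genes have processed pseudogenes that can share reads, so their values are uncertain. Cabin1, which binds and inhibits calcineurin, had 0.12 ± 0.12 (SE) per the authors' deposited table and did not pass.

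Kinases and carriers that set where NFAT resides went both ways, with 2 positive and 3 negative calls of 13 and a median of -0.01. Called genes made up 38.5% of this list, beside 24.5% of all tested genes. Gsk3b, the kinase that drives nuclear export of NFATc proteins, was positive at 0.46 ± 0.13 (SE), and the casein kinase Csnk1a1 negative at -0.31 ± 0.12 (SE) per the authors' deposited table. Kpnb1, an importin, had -0.88 ± 0.23 (SE) and Xpo1, the exportin CRM1, -0.55 ± 0.16 (SE) per the authors' deposited table. Homer2, a scaffold that competes with calcineurin for NFAT, had 2.77 ± 0.997 (SE) at a mean of only 14.8 normalized counts per the authors' deposited table. The calls of Homer2 and Csnk1a1 were near the threshold (adjusted p = 0.0267 and 0.0456 per the authors' deposited table) and were lost with Benjamini-Hochberg over all genes with a p-value (0.0692 and 0.116), as was that of Csnk1a1 with the median subtracted (0.0504). The DYRK kinases Dyrk1a and Dyrk2 had -0.08 and -0.01 per the authors' deposited table and did not pass.

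Genes known as NFAT targets in lymphocytes had 8 positive and 2 negative calls of 20, with a median log2 fold change of 0.62, or 0.73 with the length and GC trends removed. Over all tested genes, calls were positive for 11.0% and negative for 13.5%. With the trends removed the list had 10 positive and 2 negative calls, since the cytokine gene Csf2 (1.01, adjusted p = 0.00166) and the receptor gene Havcr2 (0.63, adjusted p = 0.0399) then passed. Most of these genes also answer to AP-1, NF-kB and other factors, so the counts do not measure NFAT activity. The positive calls were Tnfrsf9, Pdcd1, Tox, Nr4a1, Tnf, Il2, Il4 and Il3, and the negative calls Il13 and Irf4. Tnf, the inflammatory cytokine, had 1.87 ± 0.50 (SE) and Il2, the textbook NFAT target of T cells, 2.21 ± 0.67 (SE) per the authors' deposited table. Tnfrsf9, a costimulatory receptor, had 1.60 ± 0.18 (SE) with an adjusted p of 1.64e-16 per the authors' deposited table. Pdcd1, which encodes PD-1, had 1.12 ± 0.18 (SE) at a mean of 27423 normalized counts per the authors' deposited table. Against these, the type 2 cytokine Il13 had -1.06 ± 0.18 (SE) and Il5 0.12 ± 0.22 (SE), the latter without a call, per the authors' deposited table. Egr2 and Egr3, zinc finger factors induced by NFAT, had 0.65 ± 0.34 (SE) and 1.31 ± 0.69 (SE) per the authors' deposited table, with adjusted p-values of 0.161 for both. Il2, Il4, Il3 and Irf4 were named after their values were seen, as were Egr2, Egr3 and Il5.

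Targets of NFAT5 in osmotic stress had 2 positive and 1 negative call of 10 and a median of 0.28. Slc5a3, the myo-inositol transporter, had 1.11 ± 0.26 (SE) with an adjusted p of 0.000294, and Hspa1a, a heat shock protein, 0.88 ± 0.25 (SE) per the authors' deposited table. Akr1b3, the aldose reductase that makes sorbitol, was negative at -0.54 ± 0.13 (SE) per the authors' deposited table, and the taurine transporter Slc6a6 had 0.03 ± 0.14 (SE) without a call. Hspa1a has a near-identical copy, Hspa1b, and also responds to heat and handling, so its value is uncertain. Among 5 other calcineurin substrates, 1 passed (20.0%, beside 24.5% of all tested genes). It was the lysosomal factor Tfeb, at 0.67 ± 0.18 (SE) per the authors' deposited table. Crtc1, Crtc2, Crtc3 and Tfe3 lay between 0.18 and 0.27 per the authors' deposited table without a call.

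**Figure D5:**
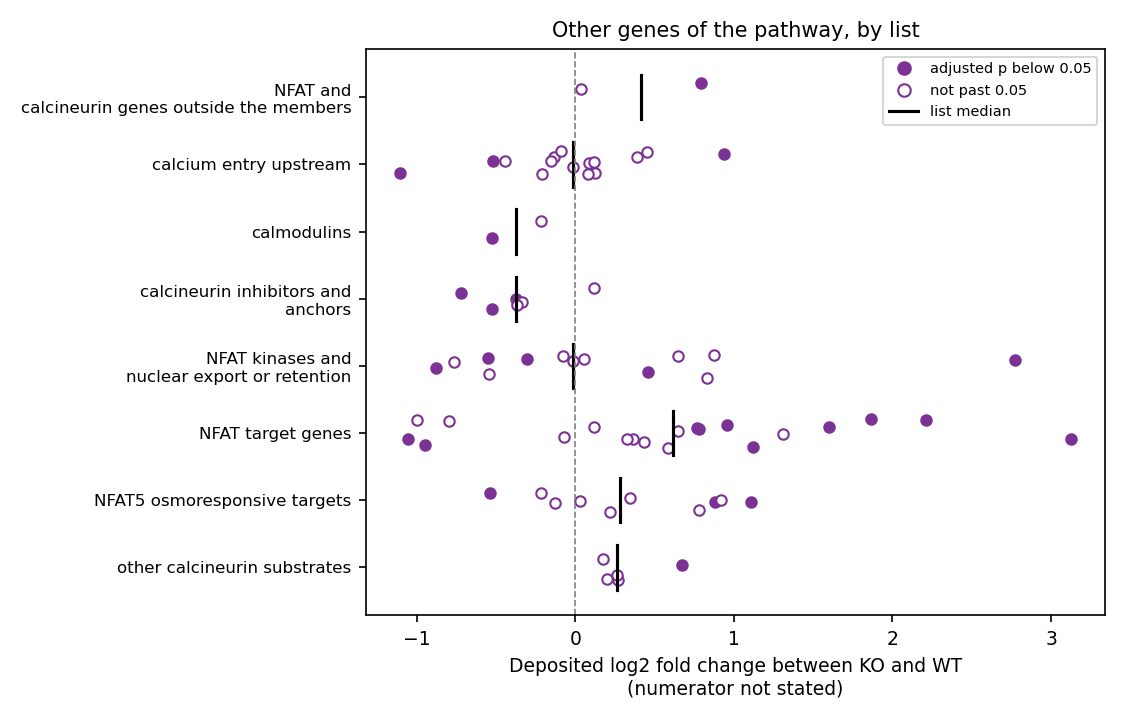
Deposited log2 fold change between KO and WT (x axis, numerator not stated) of the tested genes in 8 pathway lists, 1 point a gene, filled where the adjusted p was below 0.05, with a black line at each list's median. The medians run from -0.37 for the list of calcineurin inhibitors and anchors to 0.62 for the NFAT target genes. The former list also holds Ppia and Fkbp1a, the partners of cyclosporin and tacrolimus.

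The ILC2 label was checked against 12 markers, all of which were tested, with means from 291.2 to 44552 normalized counts, Gata3 the highest. Of these markers 1 was called positive, Gata3 at 0.63 ± 0.16 (SE), and 3 negative, Il13, Klrg1 at -0.44 ± 0.12 (SE) and Thy1 at -1.98 ± 0.75 (SE), per the authors' deposited table. Called genes made up 33.3% of the ILC2 markers, beside 24.5% of all tested genes (11.0% positive and 13.5% negative). With the length and GC trends removed, the ILC2 markers had 3 positive and 2 negative calls. Of 46 markers of other cell types, 39 were tested, with 0 positive and 6 negative calls (15.4%, beside 13.5% negative over all tested genes), and 30 of the 39 lay below 0. The means of these 39 ran from 11.5 to 7594 normalized counts, Sftpc the highest. Some exceeded those of the ILC2 markers Thy1 and Il13 (619), and Sftpc and Ighm (6265) also exceeded Il5 (5540). The called ones were H2-Ab1 (-1.74), C1qa (-2.63), Pdgfrb (-1.63), Ighm (-1.56), Cd79b (-0.88) and Cd3g, per the authors' deposited table. Of the T cell markers 1 of 6 tested was called, Cd3g at -0.66 ± 0.19 (SE) per the authors' deposited table, and of the B cell markers 2 of 5, both negative. These shares of 16.7% and 40.0% stand beside 24.5% called and 13.5% called negative over all tested genes. Lymphocytes of other kinds also express NFAT and calcineurin genes, and the part of such cells in the values above was not tested.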

How the data were processed

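RNA of sorted lung ILC2s was sequenced in 6 samples, and a SMART-Seq HT kit made the full-length cDNA, per the labels' protocols. HISAT2, Cufflinks and mm10 are named in the submitters' processing notes, and the counting tool, the annotation and the strand setting are details not given in the sources used here. Per the file headers, the authors deposited the following per gene: a signal that is the mean normalized count over their libraries, a log2 fold change and the standard error of it, the score of a test, and p-values before and after adjustment. Adjusted p-values were present for 14961 of 39527 genes, at means of at least 10.46 normalized counts. The libraries behind the authors' fit are not given, nor is their culture or cage of origin. The p-values set the difference between groups against the error of that fit, and variation between single animals was not resolved.

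A further 12 columns of single-library values under 6 names matched no label and were not used. The planned edgeR fit on counts was therefore replaced by the deposited comparison, and single-sample depth was not used. A gene counted as called when its adjusted p was below 0.05, and 95% intervals are normal intervals from the deposited error. Members and lists were chosen with earlier results of these data known. The text names all members, Stk11, up to 6 called genes of each list with the smallest p, the smallest p of a list without calls, and untested genes; others were named after their values were seen, and 1 listed gene is not reported here. Exonic length and GC content came from GENCODE M21 on mm10, and lowess trends (fraction 0.3) on each were removed from protein-coding genes. The adjustment and the trend removal were run on simulated data with normal errors and straight-line trends. That run checks the code and does not show how well either suits these data. Software was statsmodels 0.14.6, scipy 1.17.1, pandas 2.3.3, numpy 2.4.6 and matplotlib 3.10.9 under Python 3.11.15.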

Additional observations from a re-analysis of the deposited data

How the results depend on the processing

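The calls of Nfatc2 and Nfat5 kept their sign and their side of the threshold at adjusted p below 0.01 and below 0.1, with Benjamini-Hochberg over all 39444 genes with a p-value or over 9714 genes with a mean of at least 100, with the median subtracted and with the length and GC trends removed. Under Holm adjustment 0 members passed, and the other pathway genes had 4 positive and 3 negative calls in place of 15 and 12. Under the remaining alternatives the pathway counts ran from 13 to 18 positive and 8 to 13 negative. Benjamini-Hochberg over all genes with a p-value also ended the calls of Chp1 (adjusted p = 0.0963) and Il3 (0.0981). With the trends removed, uncalled values changed sign for Nfatc3 (-0.026), Ppp3r1 (0.043), Cabin1 (-0.14), Calm2 (0.13), Crtc3 (-0.031), Itpr3 (-0.077), S100a4 (0.29), Slc6a6 (-0.091), Stim1 (-0.090) and Stim2 (0.020). No paired analysis was possible because no column of single-library values matched a label, and for the same reason DESeq2, the count filter and leaving out single replicates were not run. Whether 1 library carries a call was therefore not tested.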

Other observations

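Calcium bound to calmodulin also drives a family of kinases, and inositol trisphosphate is released together with diacylglycerol, which acts through protein kinase C and RasGRP proteins. Lists of both groups were written after the values above were known. Of 9 tested calcium/calmodulin-dependent kinase genes, 3 were positive and 0 negative past the threshold, with a median log2 fold change of 0.45 (0.34 with the length and GC trends removed, when 2 passed). The shares over all tested genes were 11.0% positive and 13.5% negative. Camk1d, a CaMKI isoform, had 1.19 ± 0.13 (SE) with an adjusted p of 1.2e-17 per the authors' deposited table. Camk4, which phosphorylates CREB in lymphocytes, had 0.56 ± 0.13 (SE) and Camk2d 0.40 ± 0.14 (SE) per the authors' deposited table. Camkk2, a calcium-driven kinase that can activate AMPK in place of LKB1, had -0.17 ± 0.18 (SE) with an adjusted p of 0.542 per the authors' deposited table.

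Of 16 tested genes of the diacylglycerol arm, 5 were positive and 1 negative past the threshold, with a median of 0.24. This share of 37.5% stands beside 24.5% of all tested genes (11.0% positive and 13.5% negative). With the length and GC trends removed the median was 0.13, with 4 positive calls and 1 negative. The RasGRP exchange factors, which activate Ras or Rap, went both ways, with Rasgrp1 at 0.47 ± 0.14 (SE), Rasgrp4 at 0.93 ± 0.34 (SE) and Rasgrp2 at -1.48 ± 0.25 (SE) per the authors' deposited table. The protein kinase C gene Prkcd had 0.40 ± 0.11 (SE), while Prkcq, the isoform of T cell receptor signalling, had -0.09 ± 0.17 (SE) and did not pass per the authors' deposited table. The diacylglycerol kinases Dgka and Dgkq, which remove diacylglycerol, had 0.37 ± 0.11 (SE) and 0.82 ± 0.26 (SE) per the authors' deposited table.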
